A study of Mus musculus with 6 samples.

Results

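The genes described here carry signals through phosphoinositide 3-kinase (PI3K), the kinase Akt, the FoxO transcription factors and the kinase mTOR. They were taken by symbol from a list of 36 genes, and all 36 of the 36 were found among the 14608 genes of the deposited tables. The RNA came from mouse spleen, out of which regulatory T (Treg) cells, a CD4 lineage that keeps immunity in check, had been sorted by CD4 and a yellow fluorescent protein (YFP). There were 6 libraries. Wild type (WT), a heterozygous Cdc42 knockout (Cdc42+/-) and a homozygous Cdc42 knockout (Cdc42-/-) had 2 libraries each, from 2 mice per genotype; values marked heterozygous and homozygous below belong to these knockouts. Cdc42 encodes a small GTPase that organises actin and cell polarity. The labels give no age, sex or strain, and name neither the promoter that drives YFP nor the Cre or other allele behind the knockout.

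PI3K makes a membrane lipid that recruits Akt, and lipid phosphatases such as SHIP-1 act on that lipid. Akt phosphorylates FoxO factors and so keeps them out of the nucleus, and it relieves the TSC complex's brake on the GTPase Rheb, which switches on mTOR complex 1 (mTORC1) at the lysosome. Amino acids act on mTORC1 through the Rag GTPases and the Ragulator scaffold, which sestrins oppose, while the energy sensor AMPK restrains mTORC1. In Treg cells FoxO1 is known for supporting the resting programme, and mTORC1 for supporting metabolism and suppressive function.

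Library quality and identity were examined first. The libraries held 8556576 to 17796100 reads in genes, and 7 T cell and Treg markers were detected in every library, among them Foxp3 at 58.4 to 131 RPKM (reads scaled by gene length and by library size). Cdc42 itself lay at 161 and 166 RPKM (WT), 156 and 164 (heterozygous) and 122 and 173 (homozygous), so that its level did not separate the genotypes and the knockout is known from the labels alone. One library stood apart. In Cdc42-/- replicate 2 the summed level of 12 myeloid markers was 1779 RPKM, against 50.5 to 101 RPKM in the other 5 libraries, and all 12 of the 12 markers were highest there. The 3 erythroid markers summed to 136 RPKM in it, against 0.244 to 16.6 RPKM elsewhere, and the 7 T cell and Treg markers to 1015 against 1241 to 1643 RPKM. Cdc42-/- replicate 1 had the next lowest T cell and Treg sum (1241 RPKM, against 1516 to 1643 in WT and Cdc42+/-). Cd3e, Cd3g, Ikzf2 and Cd4 were below WT and Cdc42+/- in both Cdc42-/- libraries. Ctla4 was above them in both (202 and 201 RPKM, against 130 to 157). Foxp3 and Il2ra of replicate 1 lay within the range of WT and Cdc42+/-. Replicate 1 also had the next highest erythroid sum (16.6 RPKM, against 0.244 to 3.92). Its myeloid sum of 85.8 RPKM, of which Cst3 gave 48.5, lay within the range of WT and Cdc42+/-. Lyz2 (9.75 RPKM, against at most 7.28), Csf1r, Itgam, Adgre1 and Mpo were above WT and Cdc42+/- in replicate 1. The other myeloid markers were not. Of the 4 B cell markers, which summed to 10.1 to 18.5 RPKM, 0 were highest in Cdc42-/- replicate 2. The 4 CD8 T and NK cell markers summed to 12.1 RPKM in Cdc42-/- replicate 2 and to 8.63 to 9.18 RPKM elsewhere. Of these markers, 2 were highest in Cdc42-/- replicate 2 (Cd8a and Klrd1). Sex-linked RNA also split the libraries: the Y-linked gene Ddx3y stood at 37.7 and 42.4 RPKM (WT), 0.126 and 0 (heterozygous) and 0.0974 and 27.5 (homozygous). Xist, which is transcribed from the inactive X chromosome, stood at 0.199 and 1.13 RPKM (WT), 99.3 and 93.3 (heterozygous) and 87.4 and 21.2 (homozygous), so that Cdc42-/- replicate 2 held RNA of both genes. Genotype and sex cannot be told apart in the comparison of Cdc42+/- with WT. The same holds for each value of Cdc42-/- against WT that leaves out Cdc42-/- replicate 2, since replicate 1 has the Xist and Ddx3y levels of the Cdc42+/- libraries. The part of the myeloid RNA and of sex in the results below was not tested, and values without Cdc42-/- replicate 2 are given beside the main results of Cdc42-/-. In these the genotype has 1 library, which is assumed to vary like the other genotypes, so that the spread comes from WT and Cdc42+/- alone. Their adjusted p can then be smaller than with both libraries and is no sign of a firmer result.

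All 36 genes passed the filter on low values (a mean of at least 0.5 RPKM over the 6 libraries). In WT they ranged from 6.41 RPKM for Eif4ebp1, a repressor of cap-dependent translation, to 194 RPKM for Txnip, an inhibitor of thioredoxin and of glucose uptake, with a median of 28.2 RPKM. Between 43 reads (Eif4ebp1) and 11946 reads (Pik3cd) lay behind a value. Because bulk RNA was measured, fewer cells of a type and less RNA per cell cannot be told apart.

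In Cdc42-/- Treg cells the sestrins Sesn1 and Sesn3 fell and Akt1 rose, both against WT and against Cdc42+/-. Sestrins are stress-induced proteins that hold mTORC1 back when amino acids are short, and Akt1 is the kinase that links PI3K to FoxO and mTORC1. These were the only 3 of the 36 genes to pass (adjusted p under 0.05, limma), 1 higher and 2 lower in each of the 2 comparisons. They make up 8.33% of the 36 genes. Of all 12233 genes tested, 11.4% passed against WT (6.86% higher, 4.57% lower) and 8.22% against Cdc42+/- (4.68% higher, 3.54% lower), so that the share among the pathway's genes was near or below the background. In Cdc42+/- against WT 0 of the 36 genes passed, where 0% of all genes did. By unadjusted p under 0.05 the count was also 0 of 36, where 4.32% of all genes had such a p, and limma-voom gave 0 as well.

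**Figure D1:**
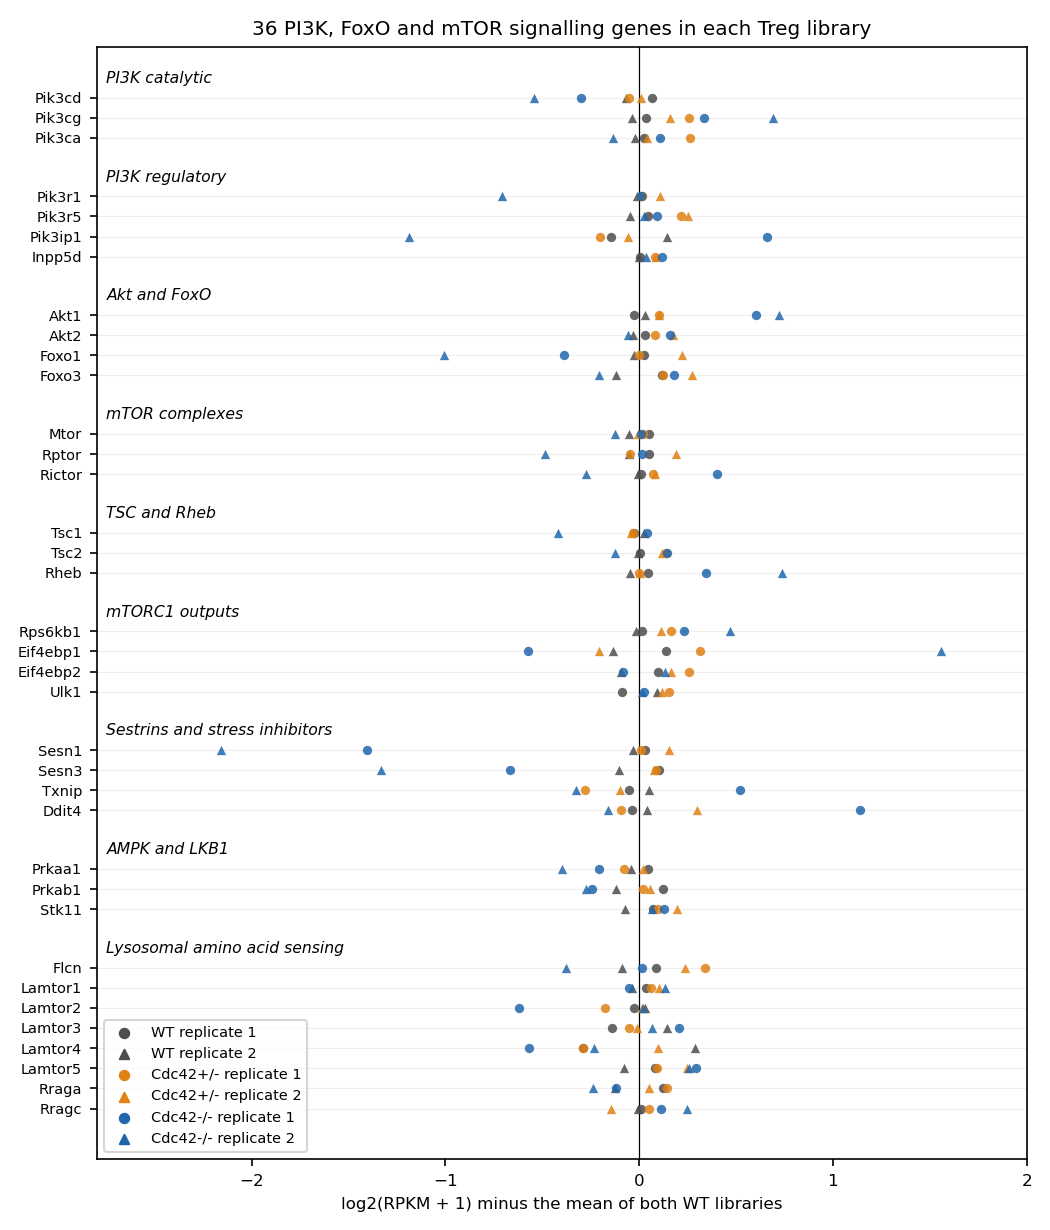
Level of each of the 36 genes in each library, as log2(RPKM + 1) minus the mean of both WT libraries (horizontal axis), grouped by role; colour gives the genotype and the marker shape the replicate. The Cdc42+/- libraries stay near WT, while the Cdc42-/- libraries lie far to the left for Sesn1 and Sesn3, to the right for Akt1, and on opposite sides of WT for Pik3ip1, Txnip, Ddit4 and Eif4ebp1.

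The promoter windows of the genes that passed were read for the binding motif of FoxO factors, because Sesn1 and Sesn3 are known FoxO targets. The windows come from RefSeq (GRCm38.p6; 250 bases before to 50 after each start, 43 windows for 34 of the 36 genes). TGTTTAC, searched on both strands, was found in windows of 5 of these 34 genes, Sesn1, Akt1, Pik3cg, Stk11 and Txnip, which is 14.7%, against 4.05% of all 27025 genes with a window. GTAAACAA, whose matches overlap those of TGTTTAC, was found for 4 of the 34 genes (11.8%, against 1.32% of all genes). Of the genes that passed, Sesn1 and Akt1, which moved in opposite directions, held TGTTTAC in 1 window each and Sesn3 held none of the letters searched. Pik3cg, Stk11 and Txnip did not pass in any comparison. Binding of FoxO factors was not tested. The match of Sesn1 lay 23 bases after the start, in an exon that GENCODE M21 annotates as UTR (chr10:41810585-41810614, plus strand, 30 bases shown). The match of Akt1 lay 161 bases before the start, where the GENCODE M21 basic set annotates no gene (chr12:112674885-112675134, minus strand, the 250 bases before the start). Both are printed 5′ to 3′ because they belong to genes that passed, with the motif in capitals.
Sesn1: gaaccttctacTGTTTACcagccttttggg
Akt1: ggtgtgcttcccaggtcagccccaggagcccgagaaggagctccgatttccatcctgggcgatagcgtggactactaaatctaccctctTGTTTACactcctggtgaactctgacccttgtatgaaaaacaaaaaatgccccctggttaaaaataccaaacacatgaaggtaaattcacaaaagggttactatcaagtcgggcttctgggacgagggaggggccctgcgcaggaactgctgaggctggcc

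The E-box CACGTG, the core of the element bound by the lysosomal regulator TFEB, was found in windows of 4 of the 34 genes (11.8%, against 8.09% of all genes). These were Rheb, Rragc, Lamtor1 and Lamtor4, a share near the background, and none of the 4 passed in any comparison. Rraga, Lamtor2, Lamtor5 and Flcn, which act at the lysosome as well, held no match.

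Sesn1 (gene ID 140742, chr10:41810574-41908436, GRCm38) had the largest log2 difference of the 36 genes in Cdc42-/-. Its level was 51.7 and 49.4 RPKM (WT), 50.8 and 56.4 (heterozygous) and 18.4 and 10.6 (homozygous). Both Cdc42-/- libraries were below all 4 others, and the WT and Cdc42+/- libraries overlapped. Mean levels were 50.6 ± 1.65 (SD, n = 2), 53.6 ± 3.94 and 14.5 ± 5.57 RPKM. On the log2(RPKM + 1) scale Sesn1 fell by 1.78 against WT (SE 0.24, limma adjusted p 0.00821) and by 1.86 against Cdc42+/- (SE 0.24, adjusted p 0.0125). Without Cdc42-/- replicate 2 the value against WT was -1.41 (adjusted p 0.000647) and that against Cdc42+/- was -1.49 (0.00117). The call against WT was lost without WT replicate 1 or WT replicate 2 (adjusted p up to 0.0852). The call against Cdc42+/- was lost without either WT or either Cdc42+/- library (up to 0.142) and in the fit of only those genotypes (0.0508). The authors' deposited table lists Sesn1 at a log2 fold change of -1.84 with an adjusted p of 1.05e-07 for Cdc42-/- against WT.

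Sesn3 (gene ID 75747, chr9:14276301-14326134) followed the same order of genotypes at a smaller size. It stood at 59.3 and 51.3 RPKM (WT), 58.7 and 58.1 (heterozygous) and 34.4 and 21.3 (homozygous). Again both Cdc42-/- libraries lay below the other 4. Sesn3 fell by 1.00 on the log2 scale against WT (SE 0.22, limma adjusted p 0.0384) and by 1.08 against Cdc42+/- (SE 0.22, adjusted p 0.0380). Its values were -0.67 against WT (adjusted p 0.00874) and -0.75 against Cdc42+/- (0.00854) without Cdc42-/- replicate 2. Both calls were lost when each pair of genotypes was fitted by itself (0.109 and 0.0978) and without either WT or either Cdc42+/- library (up to 0.207 against WT and 0.241 against Cdc42+/-). The authors' deposited table gives -1.03 with an adjusted p of 0.00805.

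Akt1 (gene ID 11651, chr12:112653821-112674884) moved the other way, with close replicates. Its level was 40.8 and 42.5 RPKM (WT), 44.7 and 44.8 (heterozygous) and 63.7 and 69.4 (homozygous). Here the libraries of all 3 genotypes were in separate ranges, with Cdc42+/- just above WT, a difference of 0.10 (SE 0.10, adjusted p 0.999). In Cdc42-/- Akt1 rose by 0.66 against WT (SE 0.10, limma adjusted p 0.0122) and by 0.56 against Cdc42+/- (SE 0.10, adjusted p 0.0263), a ratio of means of 1.60 and 1.49. Leaving out Cdc42-/- replicate 2 gave 0.60 against WT (adjusted p 0.00603) and 0.50 against Cdc42+/- (0.0147). Both calls were lost when each pair of genotypes was fitted by itself (0.0586 and 0.0824) and without either WT or either Cdc42+/- library (up to 0.108 and 0.237). In the authors' deposited table Akt1 missed the threshold, with 0.63 and an adjusted p of 0.0598. Of the 36 genes, that table has Sesn1 and Sesn3 past 0.05, where 8.66% of its 14608 genes are, and 0 of the 36 for Cdc42+/-, where 2.28% are. RefSeq places a lncRNA (Gm30150) and a miRNA gene (Mir6939) within the span of Akt1, whose reads cannot be separated here because the strand setting of the counting is not stated. The paralogue Akt2 showed 49.0 and 46.9 RPKM (WT), 50.8 and 54.2 (heterozygous) and 53.7 and 46.0 (homozygous), with overlap of Cdc42-/- with both other genotypes.

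**Figure D2:**
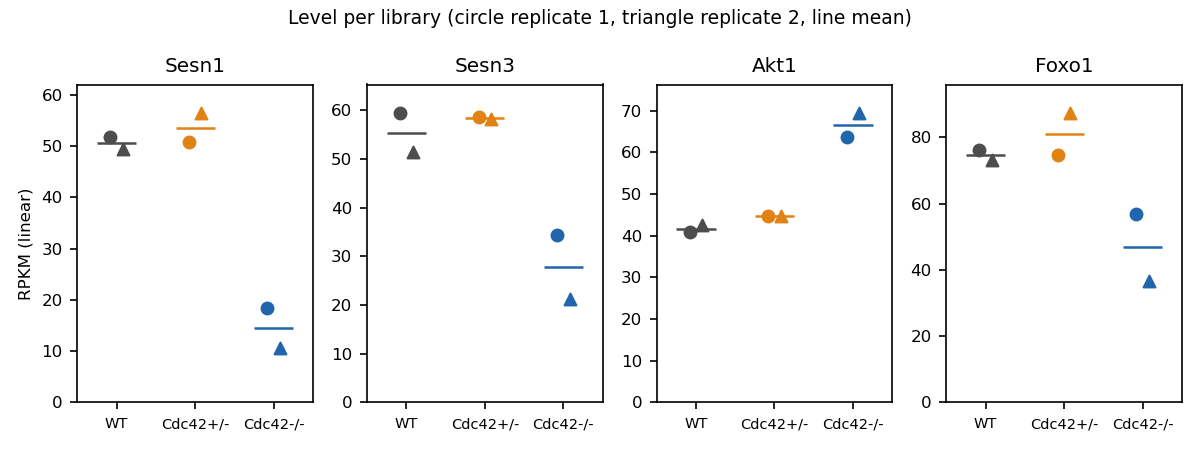
RPKM (linear axis from 0) of Sesn1, Sesn3, Akt1 and Foxo1 in each library, by genotype; circles are replicate 1, triangles replicate 2 and lines the mean of 2 libraries. Both Cdc42-/- libraries lie below all others for Sesn1, Sesn3 and Foxo1 and above all others for Akt1.

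The FoxO factors themselves were examined next. Foxo1 (gene ID 56458, chr3:52268337-52350109) was at 76.0 and 73.2 RPKM (WT), 74.7 and 87.2 (heterozygous) and 56.9 and 36.7 (homozygous). The Cdc42-/- libraries were the lowest, but they differed from each other 1.55-fold, and the log2 difference of -0.70 against WT (SE 0.21, 95% interval -1.20 to -0.19) did not pass (limma adjusted p 0.0856). The same held against Cdc42+/- (-0.81, SE 0.21, adjusted p 0.0692). Without Cdc42-/- replicate 2 the values were -0.39 (0.0557) and -0.50 (0.0302), and without replicate 1 the value against WT was -1.01 (0.00101). Foxo3 lay lower, at 13.4 and 11.2 RPKM (WT), 13.4 and 14.9 (heterozygous) and 14.0 and 10.4 (homozygous), and its genotypes overlapped in the comparison of Cdc42-/- with WT.

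Of the 3 PI3K catalytic subunits 0 passed, and the leukocyte isoforms lay on opposite sides of WT in Cdc42-/-. Pik3cd, which encodes the p110δ subunit that serves antigen receptors, was the most abundant, at 121 and 109.6 RPKM (WT), 111 and 116 (heterozygous) and 93.3 and 78.5 (homozygous). Both Cdc42-/- libraries were below the other 4 (-0.42 against WT, SE 0.12, limma adjusted p 0.0782; -0.30 with 0.0687 without Cdc42-/- replicate 2, and -0.54 with 0.00510 without replicate 1). Pik3cg, which encodes the p110γ subunit that serves chemokine and other G protein-coupled receptors, stood at 11.6 and 11.0 RPKM (WT), 13.8 and 12.8 (heterozygous) and 14.6 and 18.9 (homozygous). Its genotypes occupied separate ranges (0.51 against WT, SE 0.16, limma adjusted p 0.0912). The value of Pik3cg was 0.34 without Cdc42-/- replicate 2 and 0.69 without replicate 1. Pik3ca, which encodes the ubiquitous p110α subunit, was at 13.7 to 18.3 RPKM in all 6 libraries.

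Of the regulators of PI3K, Pik3r5 (the p101 partner of p110γ) and Inpp5d (the phosphatase SHIP-1) stayed within 22.9 to 28.4 RPKM and 43.2 to 47.1 RPKM over the 6 libraries. Pik3r1, which encodes the p85α adaptor, was at 39.2 to 42.7 RPKM in the WT and Cdc42+/- libraries and at 39.8 in Cdc42-/- replicate 1, but at 23.9 in Cdc42-/- replicate 2. Pik3ip1, a membrane protein that inhibits PI3K and is high in resting T cells, is described with the genes on which the Cdc42-/- libraries differed.

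Of the 3 core genes of the mTOR complexes 0 passed. Mtor, the kinase, was at 9.51 and 8.78 RPKM (WT), 9.28 and 9.09 (heterozygous) and 9.19 and 8.30 (homozygous). Its log2 difference of Cdc42-/- from WT was -0.06, with a 95% interval of -0.40 to 0.28 (limma adjusted p 0.809). Rptor, the mTORC1 scaffold, was at 8.12 to 9.78 RPKM in the WT and Cdc42+/- libraries and at 8.54 and 5.75 in Cdc42-/-. Rictor, the mTORC2 scaffold, was at 18.5 to 19.8 RPKM in WT and Cdc42+/-, and at 25.02 and 15.2 in Cdc42-/-, 1 library above and 1 below all the others. Rictor was higher than WT without Cdc42-/- replicate 2 (0.40, adjusted p 0.0493) and on the other side of WT without replicate 1 (-0.28, 0.106).

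Upstream of mTORC1, Tsc1 and Tsc2, the subunits that inactivate Rheb, were at 8.48 to 12.1 and 9.77 to 12.0 RPKM over the 6 libraries. Rheb was at 27.8 and 26.0 RPKM (WT), 26.8 and 26.9 (heterozygous) and 34.4 and 45.5 (homozygous). Both Cdc42-/- libraries were above the other 4, but the difference of 0.54 against WT (SE 0.15) did not pass (limma adjusted p 0.0705), and without Cdc42-/- replicate 2 it was 0.35 (0.0629), against 0.74 (0.00230) without replicate 1. Downstream, Rps6kb1, the kinase that phosphorylates ribosomal protein S6, was at 10.7 and 10.5 RPKM (WT), 12.0 and 11.5 (heterozygous) and 12.6 and 15.0 (homozygous) (0.35 against WT, SE 0.14, adjusted p 0.157). The value of Rps6kb1 was 0.23 (0.307) without Cdc42-/- replicate 2, and it passed, at 0.47 (0.0384), with that library as the sole one of its genotype. Eif4ebp2, a repressor of translation, was at 66.9 to 85.6 RPKM and Ulk1, the kinase that starts autophagy, at 10.8 to 13.0 RPKM, without separation of Cdc42-/- from WT.

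Of the 3 genes of the energy-sensing arm 0 passed. Prkaa1, the catalytic AMPK subunit, was at 17.9 and 16.8 RPKM (WT), 16.4 and 17.6 (heterozygous) and 14.9 and 12.9 (homozygous). Prkab1, a regulatory subunit, was at 31.7 and 26.7, 29.5 and 30.2, and 24.4 and 23.9 RPKM in the same order. For both genes the Cdc42-/- libraries were the lowest 2 of the 6. Against WT and without Cdc42-/- replicate 2 their values were -0.21 (adjusted p 0.315) and -0.25 (0.240). Stk11, which encodes the AMPK kinase LKB1, was at 22.7 to 27.5 RPKM over all libraries.

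The lysosomal amino acid sensing genes gave no call among 8. The 5 Ragulator genes lay between 24.4 and 61.8 RPKM, and Rraga and Rragc between 22.2 and 34.2 RPKM. Flcn, which encodes folliculin, an activator of RagC, was at 13.3 and 11.7 RPKM (WT), 16.1 and 14.9 (heterozygous) and 12.6 and 9.36 (homozygous). It was lower in Cdc42-/- than in Cdc42+/- without overlap (-0.47, SE 0.17, limma adjusted p 0.147), and overlapped with WT. Its value against Cdc42+/- was -0.28 without Cdc42-/- replicate 2 and -0.67 without replicate 1. Lamtor5 was above WT in both Cdc42-/- libraries, at 44.3 and 43.1 against 38.1 and 34.0 RPKM, and also did not pass (adjusted p 0.172, and 0.134 without Cdc42-/- replicate 2). Reads of Rraga could be shared with its close paralogue Rragb, since the handling of such reads is not stated.

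Over the 36 genes, 13 (36.1%) had Cdc42-/- libraries that did not overlap WT, 7 higher and 6 lower, where 56% of all genes tested did so (28.9% higher, 27.1% lower). Against Cdc42+/- the count was 19 (52.8%, background 59%), 7 higher (background 28.6%) and 12 lower (background 30.4%). Between Cdc42+/- and WT it was 18 (50%, background 43.2%), 16 higher (background 26.2%) and 2 lower (background 17%). The median log2 difference of the 36 genes was 0.01 in Cdc42-/- against WT, as for all genes tested (0.01), and 22 of the 36 values were smaller than 0.3 in size. It was -0.13 in Cdc42-/- against Cdc42+/- (all genes -0.01) and 0.08 in Cdc42+/- against WT (all genes 0.03). These comparisons share libraries. By unadjusted p under 0.05, 8 of the 36 genes differed between Cdc42-/- and WT, 4 higher (Akt1, Rheb, Pik3cg, Rps6kb1) and 4 lower (Sesn1, Sesn3, Foxo1, Pik3cd), where 29.3% of all genes had such a p. Against Cdc42+/- the count was also 8, 2 higher and 6 lower, where 27.1% of all genes had such a p.

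**Figure D3:**
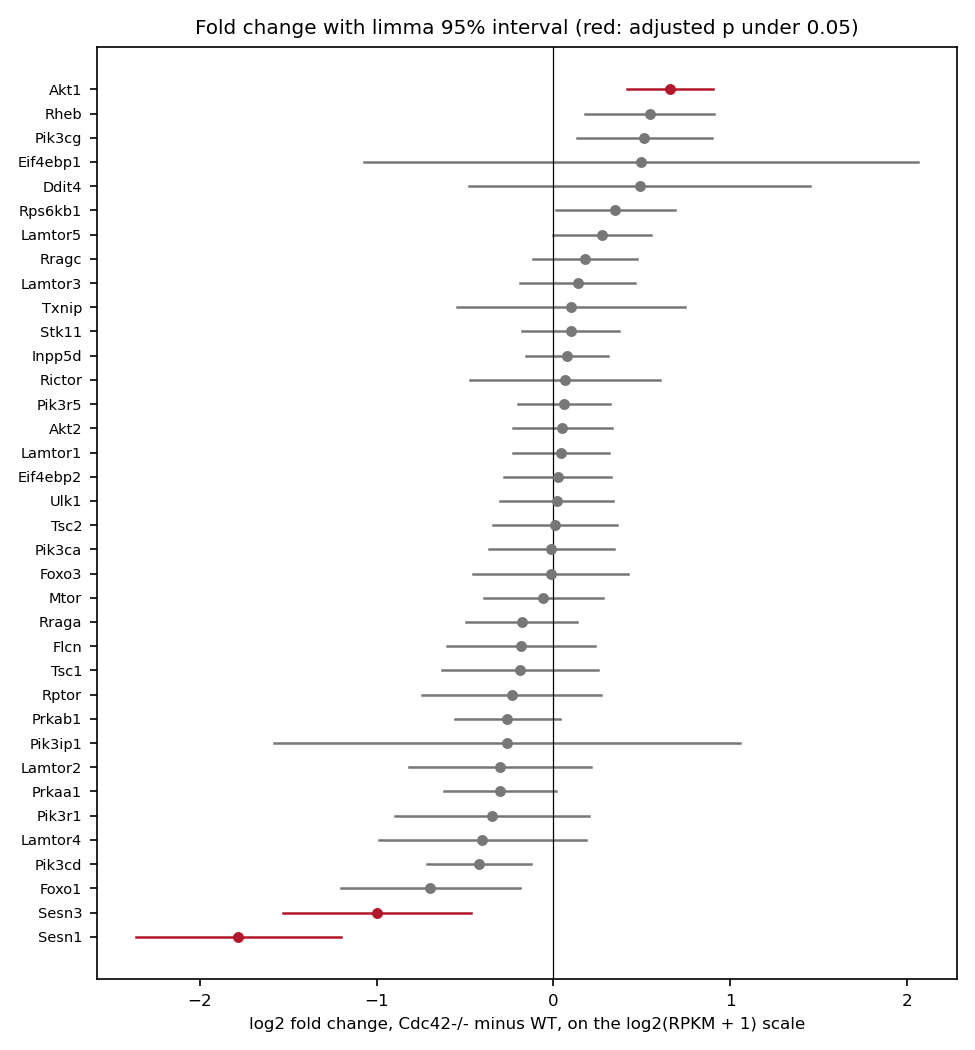
Log2 fold change of Cdc42-/- against WT on the log2(RPKM + 1) scale for the 36 genes (points) with limma's 95% interval (lines), sorted; red marks an adjusted p under 0.05. Sesn1 and Sesn3 at the bottom and Akt1 at the top are the red genes, and the widest intervals are those of Eif4ebp1, Pik3ip1 and Ddit4.

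More genes of the pathway differed between the 2 Cdc42-/- libraries than between those of the other genotypes. The libraries of one genotype differed over 1.5-fold at 1 of the 36 genes in WT (Lamtor4), 1 in Cdc42+/- (Eif4ebp1) and 10 in Cdc42-/-, which is 27.8% of the 36 genes, where 30.03% of all genes tested did so. Of all genes tested 17.1% did so in WT and 10.9% in Cdc42+/-. The 10 were Pik3ip1, Ddit4, Txnip, Rictor, Pik3r1, Foxo1, Sesn1 and Sesn3, all higher in replicate 1, and Eif4ebp1 and Lamtor2, higher in replicate 2.

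Pik3ip1 was at 36.05 and 44.3 RPKM (WT), 34.6 and 38.3 (heterozygous) and 63.8 and 17.0 (homozygous), a 3.76-fold gap that placed 1 library above and 1 below all the others. Its mean was therefore close to WT (40.4 ± 33.1 against 40.2 ± 5.85 RPKM, SD, n = 2), with a log2 difference of -0.26 (SE 0.54, limma adjusted p 0.777). With replicate 1 as the sole Cdc42-/- library it was 0.66 (adjusted p 0.0218), and with replicate 2 it was -1.19 (0.00144), where the lone library is assumed to vary like the others.

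Ddit4, which encodes the stress protein REDD1 that activates the TSC complex, was at 90.01 and 94.97 RPKM (WT), 86.7 and 114 (heterozygous) and 205 and 82.6 (homozygous). Replicate 1 alone was high (1.14 against WT, limma adjusted p 0.00444, without replicate 2), and replicate 2 alone gave -0.16 (0.455). Txnip was at 187 and 201 RPKM (WT), 159.6 and 181 (heterozygous) and 279 and 155 (homozygous). Its value was 0.52 with replicate 1 alone (0.0171) and -0.33 with replicate 2 alone (0.0481). Eif4ebp1 went the other way, with 7.11 and 5.72 RPKM (WT), 8.17 and 5.38 (heterozygous) and 3.96 and 20.8 (homozygous), the last from 186 reads. Lamtor2, a Ragulator subunit, was at 59.3 and 61.8, 53.5 and 61.2, and 39.0 and 61.4 RPKM in the same order, so that replicate 1 alone was low. The log2 difference of Lamtor2 from WT was -0.30 with both Cdc42-/- libraries, -0.62 without replicate 2 and 0.02 without replicate 1. These genes give no direction for the Cdc42-/- genotype. Replicate 2 is the library with the myeloid and erythroid RNA, whose part in these gaps was not tested.

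**Figure D4:**
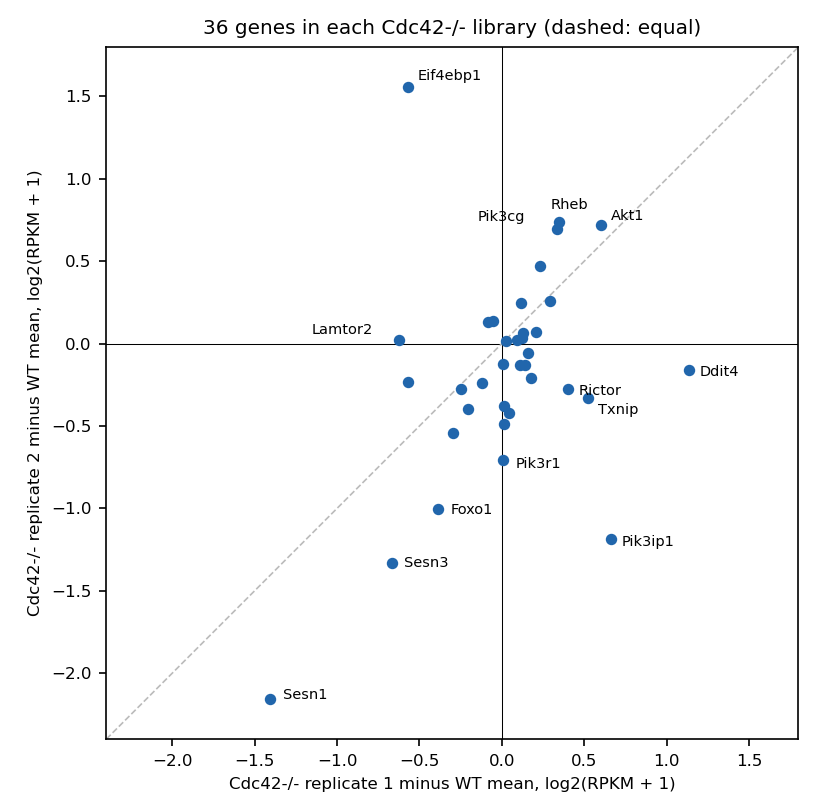
The 36 genes in Cdc42-/- replicate 1 (horizontal) and replicate 2 (vertical), each as log2(RPKM + 1) minus the WT mean; the dashed line marks equal values. Sesn1, Sesn3 and Foxo1 lie below WT in both libraries and Akt1, Rheb and Pik3cg above it in both, while Pik3ip1, Ddit4 and Txnip are above WT in replicate 1 only and Eif4ebp1 in replicate 2 only.

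Other components of the pathway were taken from a list of 66 further genes, of which 62 were tested. In Cdc42-/- against WT 1 rose and 3 fell (background 11.4% of all genes), and in Cdc42+/- against WT 0 passed, with 3 of 62 at an unadjusted p under 0.05 (background 4.32%). Sgk1, an Akt-related kinase activated through mTORC2, rose from 2.43 and 3.01 RPKM in WT to 10.9 and 13.4 in Cdc42-/-, with 3.59 and 5.09 in Cdc42+/- (1.82 against WT, SE 0.22, limma adjusted p 0.00579). It also rose against Cdc42+/- (1.31, SE 0.22, adjusted p 0.0220), and its value against WT was 1.68 without Cdc42-/- replicate 2. Inpp4b, a phosphatase that degrades PI3K lipid products, fell from 114 and 101 RPKM to 68.6 and 53.7 (-0.81, SE 0.15, adjusted p 0.0237). Rragd, a Rag GTPase, fell from 8.71 and 7.87 to 4.89 and 3.86 RPKM (-0.79, SE 0.17, adjusted p 0.0373), and Arrdc4, a relative of Txnip, from 7.77 and 9.84 to 4.31 and 3.87 RPKM (-0.94, SE 0.20, adjusted p 0.0350). In Cdc42+/- Arrdc4 stood at 4.08 and 5.31 RPKM, overlapping Cdc42-/-, and Inpp4b (100.5 and 89.0) and Rragd (6.997 and 6.51) lay between WT and Cdc42-/-; none of these 3 passed against Cdc42+/-. Without Cdc42-/- replicate 2 these 4 calls remained, among 5 higher and 7 lower, where 18.5% of all genes passed, and the values were -0.64 for Inpp4b, -0.66 for Rragd and -0.88 for Arrdc4. With replicate 1 left out in its place, 9 were higher and 11 lower, where 36.2% of all genes passed. Without WT replicate 1 or WT replicate 2 all 4 calls against WT were lost, and those of Inpp4b, Rragd and Arrdc4 also without either Cdc42+/- library and in the fit of both genotypes by themselves. Rragd and Arrdc4 lost theirs with no filter on low values and with array weights too. The call of Sgk1 against Cdc42+/- was lost without either WT or either Cdc42+/- library, with array weights and in the fit of both genotypes by themselves.

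Known FoxO targets moved in both directions. Of 24 tested, 2 rose and 4 fell in Cdc42-/- against WT (median -0.02), 1 rose and 5 fell against Cdc42+/- (backgrounds 11.4% and 8.22% of all genes), and 0 passed in Cdc42+/- against WT, with 3 of 24 at an unadjusted p under 0.05 (background 4.32%). Klf2, the factor that drives the trafficking receptors of resting T cells, rose from 121 and 122 RPKM in WT to 282 and 207 in Cdc42-/- (0.98, SE 0.17, limma adjusted p 0.0192). Gadd45b, a stress-response gene, rose from 11.9 and 9.78 to 21.6 and 24.4 RPKM (1.02, SE 0.19, adjusted p 0.0240). Id3, an inhibitor of E proteins, fell from 63.6 and 75.7 to 23.9 and 19.8 RPKM (-1.63, SE 0.14, adjusted p 0.00231), and Btg1, an antiproliferative gene, from 222 and 219 to 109 and 95.8 RPKM (-1.10, SE 0.11, adjusted p 0.00310). The Cdc42+/- libraries were at 122 and 146 RPKM for Klf2, 66.5 and 62.8 for Id3, and 220.4 and 217 for Btg1, and at 19.5 and 14.0 for Gadd45b, between WT and Cdc42-/-. The calls of Id3 and Btg1 against WT held in all 14 alternatives, while those of Klf2 and Gadd45b were lost without WT replicate 1 or 2, that of Klf2 also without either Cdc42+/- library and in the fit of both genotypes by themselves, and that of Gadd45b with array weights. Over the list, the 6 calls against WT became 2 without WT replicate 1 or WT replicate 2 (Id3 and Btg1) and 3 without either Cdc42+/- library. The 6 against Cdc42+/- became 0 without either Cdc42+/- library and 2 without either WT library. Rbl2 and Fbxo32, which fell in both comparisons, and Cdkn1b, which fell against Cdc42+/-, were among those lost each time. The call of Klf2 against Cdc42+/-, the 1 that rose, was lost in 7 of 14 alternatives, among them upper-quartile scaling and a replicate block. Without Cdc42-/- replicate 2, 5 rose and 4 fell against WT, with all 6 of the earlier calls among them, where 9.89% of all genes were higher and 8.61% lower. The values were then 1.21 for Klf2, 0.94 for Gadd45b, -1.50 for Id3 and -1.01 for Btg1. With replicate 1 left out in its place, 3 rose and 8 fell, where 20.8% of all genes were higher and 15.4% lower.

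Most of the glycolysis genes listed, which mTORC1 is known to raise through HIF1, rose in Cdc42-/-. Of 17 tested, 12 rose and 0 fell against WT, with a median log2 difference of 0.80, where 6.86% of all genes tested were higher and the median was 0.01. Against Cdc42+/- 11 rose and 1 fell (backgrounds 4.68% and 3.54%), and in Cdc42+/- against WT 0 passed, with 0 at an unadjusted p under 0.05. Slc16a3, a lactate exporter, rose from 3.97 and 1.86 RPKM in WT to 14.5 and 16.9 in Cdc42-/- (2.14, SE 0.34, limma adjusted p 0.0137). Tpi1 rose from 36.9 and 41.2 to 93.1 and 132 RPKM (1.48, SE 0.18, adjusted p 0.00581), Hk2, the hexokinase that traps glucose, from 1.99 and 2.52 to 6.73 and 7.67 RPKM (1.33, SE 0.20, adjusted p 0.0119), and Pgam1 from 39.4 and 42.7 to 74.5 and 116 RPKM (1.16, SE 0.21, adjusted p 0.0203). Slc2a3, a glucose transporter, was the gene that fell against Cdc42+/-, from 33.4 and 30.4 to 19.9 and 15.1 RPKM (adjusted p 0.0386), a call lost without either WT or either Cdc42+/- library and in the fit of both genotypes by themselves. Without Cdc42-/- replicate 2, 13 rose and 1 fell against WT, and all 12 calls were among them, where 9.89% of all genes were higher. The values were then 2.04 for Slc16a3, 1.23 for Tpi1, 1.25 for Hk2 and 0.84 for Pgam1. Replicate 1 left out in its place gave 13 higher and 2 lower, where 20.8% of all genes were higher. Without WT replicate 2 the 4 genes named against WT lost their calls, as did Tpi1, Hk2 and Pgam1 without WT replicate 1, and Pgam1 without either Cdc42+/- library and in the fit of both genotypes by themselves. Slc16a3 lost its call with array weights. Over the list, the 12 calls against WT became 2 without WT replicate 1 (Ldha and Slc16a3), 1 without WT replicate 2 (Ldha), 7 without either Cdc42+/- library and 6 in the fit of both genotypes by themselves. The 12 against Cdc42+/- became 0 without either Cdc42+/- library, and 3 without either WT library and in the fit of both genotypes by themselves.

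**Figure D5:**
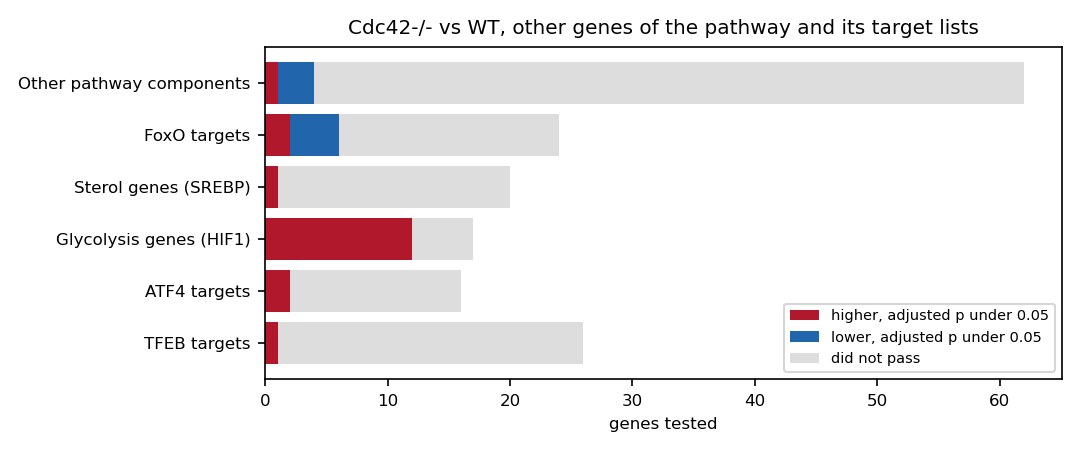
Number of genes tested in 6 lists around the pathway (bar length) and how many were higher (red) or lower (blue) in Cdc42-/- than in WT at an adjusted p under 0.05. The glycolysis list has 12 of 17 genes higher, and the other 5 lists have at most 6 calls each.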

How the data were processed

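RNA-seq of 6 splenic Treg libraries was used. Per the submitters' processing notes TopHat and the build mm10 were used; the counting tool, annotation, strand setting and filter are not given in the sources used here. The authors deposited 2 tables. Their library columns were deposited as RPKM, a unit worked out from the values because the headers name none. Other columns hold, per the file headers, the authors' group means (a signal: reads over size factors), fold change (a ratio), its log2 value, and p-values. Whole reads were recovered from RPKM and group means (100% of values within 0.05 of a whole number); the recovery and the model were tested on simulated data.

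limma 3.58.1 in R 4.3.3 was fitted to log2(RPKM + 1) of all 6 libraries (lmFit, eBayes with trend) for the 12233 genes averaging 0.5 RPKM or more, two-sided, with Benjamini-Hochberg adjustment over all of them at 0.05. Changes of low genes are understated on this scale, and SEs are moderated by limma. The 36 genes and all lists were chosen with earlier results of these data known. All 36 genes were accounted for; those that passed, with Mtor, Foxo1 and Akt1, are given in every library, and of each other list at most 4 genes per comparison with the largest change, if the higher genotype averaged 5 RPKM or more. Slc2a3, Pik3ip1, Txnip, Ddit4, Eif4ebp1 and other genes that did not pass were singled out after their values were seen. RefSeq GRCm38.p6 matched 36 of the 36 genes, of which 14 overlap another annotated gene. Irs2 is on 2 lists.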

Additional observations from a re-analysis of the deposited data

How the results depend on the processing

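The fit of only the genotypes compared gave 60 genes for Cdc42+/- against WT, 536 for Cdc42-/- against WT and 276 for Cdc42-/- against Cdc42+/-, where the fit of all libraries gave 0, 1398 and 1006; of the 36 pathway genes it called 1 (Sesn1) against WT and 0 against Cdc42+/-, instead of 3 and 3. Array weights gave 88 genes for Cdc42+/- against WT and 885 for Cdc42-/- against WT, and limma-voom on the recovered reads gave 1 for Cdc42+/- against WT. Leaving out 1 library at a time gave 0 to 76 genes for Cdc42+/- against WT (76 without Cdc42-/- replicate 1), 259 to 4433 for Cdc42-/- against WT (259 without WT replicate 1, 4433 without Cdc42-/- replicate 1) and 0 to 4263 for Cdc42-/- against Cdc42+/- (0 without either Cdc42+/- library, 4263 without Cdc42-/- replicate 1). Of the 36 genes it called 0 in the first, 0 to 12 in the second and 0 to 11 in the third, with 0 without either WT library (and, in the third, without either Cdc42+/- library), 12 and 11 without Cdc42-/- replicate 1 (where 36.2% and 34.8% of all genes passed), and 8 and 8 without Cdc42-/- replicate 2 (18.5% and 14.9%). The split of calls moved with upper-quartile scaling, to 731 higher of 1484 in Cdc42-/- against WT, from 839 of 1398.

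Sesn1, Sesn3 and Akt1 kept their direction in Cdc42-/- against both other genotypes under all 14 alternatives, and passed with pseudocount 0.1, with no filter or a stricter one, with upper-quartile scaling, with array weights and with limma-voom. With replicate 1 or replicate 2 of Cdc42-/- left out, 17 of the 36 genes had opposite signs against WT and 12 of 36 against Cdc42+/-. Of 13 genes followed under every alternative, leaving out 1 library moved the sign of Pik3ip1 (-1.19 to 0.66), Txnip (-0.33 to 0.52), Ddit4 (-0.16 to 1.14), Eif4ebp1 (-0.57 to 1.56) and Mtor (-0.12 to 0.0081) in Cdc42-/- against WT, of Pik3ip1 (-1.06 to 0.79), Txnip (-0.14 to 0.71), Ddit4 (-0.26 to 1.03), Eif4ebp1 (-0.62 to 1.51) and Mtor (-0.13 to 0.0014) against Cdc42+/-, and of Sesn3 in Cdc42+/- against WT (-0.022 to 0.18). In Cdc42+/- against WT, Mtor, Pik3cd, Rheb, Pik3ip1, Ddit4 and Eif4ebp1 also had values on both sides of 0 over the 14 alternatives. Titles number replicates 1 and 2 in each genotype, but nothing ties the numbers together: deviations of same-numbered libraries correlated at 0.02, 0.20 and -0.03 across genes. A replicate block gave 0, 1144 and 809 genes in the 3 comparisons and the same 3 pathway genes in both Cdc42-/- comparisons. With 2 libraries per genotype the 95% interval of a log2 difference had a median half-width of 0.35 over the 36 genes.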

Other observations

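Programmes that mTORC1 is known to drive through SREBP and ATF4, and the TFEB programme, which it is known to hold back, are counted here against a background of 11.4% of all genes tested in Cdc42-/- against WT and 8.22% against Cdc42+/-. Of 20 sterol and fatty acid genes driven by SREBP, 1 rose and 0 fell against WT, with a median log2 difference of -0.06: Scd2, a fatty acid desaturase, rose from 29.9 and 32.8 RPKM in WT to 57.1 and 51.2 (0.77, SE 0.13, limma adjusted p 0.0153), and from 25.4 and 29.4 RPKM in Cdc42+/- (0.96, SE 0.13, adjusted p 0.0131). Of 16 ATF4 targets tested, 2 rose and 0 fell against WT, with a median of 0.45 and 9 of 16 at an unadjusted p under 0.05 (29.3% of all genes). These were the serine synthesis enzymes Psat1, from 20.2 and 15.8 to 39.9 and 60.8 RPKM (1.41, SE 0.22, adjusted p 0.0135), and Phgdh, from 56.4 and 53.4 to 91.4 and 109 RPKM (0.85, SE 0.12, adjusted p 0.01004). Slc7a5, a leucine transporter subunit, joined them against Cdc42+/- (1.02, SE 0.20, adjusted p 0.0330), with 23.1 and 31.7 RPKM in Cdc42-/- and 14.6 and 11.2 in Cdc42+/-. Of 26 lysosome and autophagy genes that TFEB drives, 1 (Gla) rose against WT, with a median of 0.21, and 0 passed against Cdc42+/-, with 4 at an unadjusted p under 0.05; Gla was below 5 RPKM in every library. Without WT replicate 1 or WT replicate 2 the calls of Scd2, Psat1, Phgdh and Gla against WT were lost. Those of Scd2 and Gla were also lost without either Cdc42+/- library, and that of Gla in 10 of 14 alternatives. Against Cdc42+/- the calls of Scd2, Psat1, Phgdh and Slc7a5 were all lost without either Cdc42+/- library and without WT replicate 1. Those of Psat1 and Slc7a5 were lost in 7 of 14 alternatives each, among them the replicate block. Leaving out Cdc42-/- replicate 1 gave, against WT, 2 higher and 2 lower of the SREBP list, 10 and 2 of the ATF4 list and 10 and 1 of the TFEB list, where 20.8% and 15.4% of all genes were higher and lower. Leaving out replicate 2 gave 2 and 2, 2 and 1, and 1 and 3, where 9.89% and 8.61% were. Without Cdc42-/- replicate 2 the values against WT were 0.85 for Scd2, 1.12 for Psat1, 0.73 for Phgdh and 0.94 for Gla, and that of Slc7a5 against Cdc42+/- was 0.80. In Cdc42+/- against WT 0 genes of these 3 lists passed with limma, with 1, 0 and 0 at an unadjusted p under 0.05.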
